A study of Mus musculus with 8 samples.

Results

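The genes described here encode proteins that hold the presynaptic and postsynaptic membranes together, or that are secreted into the cleft between them and organize the synapse. They were taken as a list of 47 gene symbols in 16 families, from the neurexins to the contactin-associated proteins, and matched by symbol to a table of 15039 genes in which all 47 were found. No measured value entered the rule, although the list was drawn up with results of these data known. The table holds bulk RNA-seq of the prefrontal cortex (PFC) of wild-type male C57BL/6NCrljOri mice, given as 6 weeks old in the study's methods. Every mouse received a bilateral PFC injection of an adeno-associated virus, and the tissue was collected 4 weeks later. For 4 libraries the vector was AAV2/1-hsyn-eGFP, which encodes green fluorescent protein (eGFP group), and for 4 libraries it was AAV2/1-hsyn-RNF146-eGFP, which encodes the ubiquitin ligase RNF146 together with eGFP (Rnf146 group). The hsyn promoter drives the transgene in neurons, whereas the RNA came from all cells of the dissected tissue. By the study's account the Rnf146 mice had been picked for sequencing after overexpression and social deficits were seen, so *Rnf146* levels and behavior are part of how this group was formed. A level in such bulk RNA falls equally when cells of a type are fewer and when each holds less of the RNA, and these cannot be told apart here.

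At most excitatory and inhibitory synapses a presynaptic receptor, such as a neurexin or a LAR-type receptor phosphatase, binds across the cleft to a postsynaptic ligand, such as a neuroligin or a leucine-rich repeat protein. Among the secreted organizers the cerebellins bridge neurexins to glutamate receptors, and the neuronal pentraxins cluster glutamate receptors. Adhesion G protein-coupled receptors signal from the contact. Mutations in several of these families are known from autism and related disorders, which is the setting of the study. The comparison asks how their transcripts differ in the PFC once RNF146 is raised in neurons.

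The deposited values were on a log2-like scale from 7.86 to 18.8 and had been centred within the 4 pairs of libraries that carry the same replicate number. For every gene the eGFP and the Rnf146 value of a pair therefore add up to the same sum in all 4 pairs. Each gene holds one mean level and 4 pair differences, Rnf146 minus eGFP, and values of the groups are separated whenever all 4 differences have one sign. *Rnf146*, the overexpressed gene (GRCm39 chr10:29216737-29238438, minus strand), stood at 10.35, 10.50, 10.43 and 10.47 in the eGFP libraries and at 13.17, 13.01, 13.09 and 13.05 in the Rnf146 libraries. The difference averaged 2.64 ± 0.13 (SD over 4 pairs), and limma, fitted with a block for the replicate number, gave it an adjusted p of 3.2e-07. Over all genes the median difference was 0.001. Genes whose adjusted p did not exceed 0.1, the threshold of the study, are referred to as called. The read depth behind the values is unknown, and the median SD of the pair differences was between 0.094 and 0.102 in each of 4 equal bins of genes ordered by level.

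Of the 47 members, 4 were called and all 4 were lower in the Rnf146 libraries. They were *Nptx1* and *Nptxr*, both genes of the neuronal pentraxin family on the list, *Islr2*, a leucine-rich repeat protein of growing axons, and *Adgrb2*, an adhesion receptor of the brain angiogenesis inhibitor family. Among all genes 1.25% were called, 0.432% lower and 0.818% higher, so that 188 genes passed in all. The share called among the members was 8.51%, for a list drawn up with results of these data known, so it is no test of the list. No member was called higher. At an unadjusted p under 0.05 in limma 4 members were higher, beside 6.45% of all genes. Without the replicate block 4 members were called higher, beside 11% of all genes. The 4 called members, averaged together, differed by -0.37, -0.33, -0.26 and -0.27 in pairs 1 to 4.

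*Nptx1* encodes neuronal pentraxin 1, a secreted protein that clusters AMPA-type glutamate receptors at excitatory synapses (chr11:119428472-119438585, minus strand). Its values were 13.74, 13.70, 13.63 and 13.66 in eGFP libraries 1 to 4, and 13.32, 13.35, 13.43 and 13.39 in Rnf146 libraries 1 to 4. The groups did not overlap, and the smallest gap was that of pair 3. The difference was -0.31 ± 0.10 (SD, n = 4 pairs; adjusted p = 0.048, limma), which is a value 19.4% lower if the scale is read as log2.

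*Nptxr*, the membrane-bound pentraxin that anchors the secreted ones, showed the lowest mean difference of the members (chr15:79670552-79688967, minus strand). It stood at 14.55, 14.74, 14.58 and 14.59 in the eGFP libraries, against 14.32, 14.13, 14.28 and 14.27 in the Rnf146 libraries. Pair 2 was the widest of the 4, and the other pairs were close to each other. The difference was -0.37 ± 0.17 (adjusted p = 0.069, limma), a value 22.5% lower. Most of the *Nptxr* span overlaps the annotated gene *Npcd* (chr15:79673876-79718438) on the same strand, which was not analysed here. The level of *Nptxr* is thus uncertain as far as reads of both could be shared.

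*Islr2* encodes a transmembrane protein with leucine-rich repeats and an immunoglobulin domain (chr9:58103580-58111602, minus strand). Its eGFP values were 11.64, 11.46, 11.53 and 11.52, and its Rnf146 values 11.13, 11.30, 11.23 and 11.25. The separation was widest in pair 1 and narrowest in pair 2, the reverse of *Nptxr*. The difference was -0.31 ± 0.15 (adjusted p = 0.076, limma). The span of the related gene *Islr* (chr9:58063528-58111589) covers nearly all of *Islr2* on the same strand. *Islr* differed by -0.14 ± 0.12, with pair 3 on the other side of 0. The level of *Islr2* is uncertain as far as reads of both could be shared.

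*Adgrb2* encodes a brain-enriched receptor with a long extracellular part and a G protein-coupled core (chr4:129877901-129916437, plus strand). It stood at 13.78, 13.71, 13.73 and 13.73 in the eGFP libraries and at 13.46, 13.53, 13.50 and 13.51 in the Rnf146 libraries. Its 4 pairs were the most alike of the called members, with a difference of -0.24 ± 0.06 (adjusted p = 0.079, limma).

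**Figure D1:**
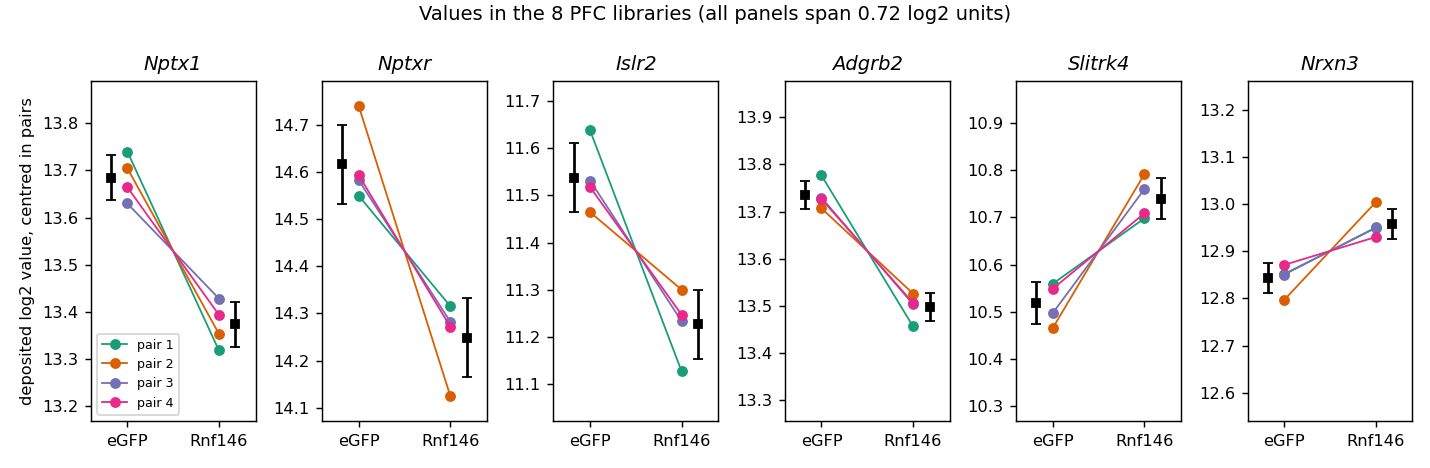
Deposited log2 value, centred within pairs (y axis), of the 4 called members and of *Slitrk4* and *Nrxn3* in the 4 eGFP and 4 Rnf146 libraries; lines join same-numbered libraries, squares with bars give mean ± SD, and all panels span the same range. All 4 lines go down for *Nptx1*, *Nptxr*, *Islr2* and *Adgrb2* and up for *Slitrk4* and *Nrxn3*, and centring makes the lines of a panel cross at one point.

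The calls rested on few residual degrees of freedom, 3 with the replicate block. The fit without the block counts 6, but it takes the mirrored values of a pair as separate ones, so its p-values are too small. Without pair 2 or without pair 4 limma called no member, although 11 and 9 members had an unadjusted p under 0.05 (8.19% and 9.2% of all genes). Without pair 3 only *Nptx1* was called (adjusted p = 0.062), and without pair 1 the same 4 genes were, with *Slitrk4* in addition. The differences themselves moved little, and without pair 2, 3 or 4 those of the 4 genes were between -0.39 and -0.24. Without the block 13 members were called, 9 lower and 4 higher, but so were 21.5% of all genes. A correction of the pair differences for GC content and transcript length, in the fit with the block, kept *Nptx1* (adjusted p = 0.053) and *Islr2* (0.090). It left *Adgrb2* (0.112) and *Nptxr* (0.119) short of the threshold, although both stayed lower, by -0.19 in place of -0.24 and by -0.33 in place of -0.37.

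The promoters of the called members are shown because RNF146 is known as a regulator of Wnt/β-catenin signaling, whose nuclear factors of the TCF/LEF family bind a short core sequence. RefSeq start sites of a GRCm38.p6 table gave an entry for *Adgrb2* and for *Islr2*, and the 250 bases before the start were each found once in GRCm39. The core was searched as CTTTGAT and CTTTGAA on both strands, 2 forms that differ in the last base and cannot match at one position of a strand. Capitals mark a match. The sequences run 5′ to 3′ on the gene's strand, at chr4:129878413-129878662 (plus) for *Adgrb2* and chr9:58111603-58111852 (minus) for the most upstream start of *Islr2*.
Adgrb2: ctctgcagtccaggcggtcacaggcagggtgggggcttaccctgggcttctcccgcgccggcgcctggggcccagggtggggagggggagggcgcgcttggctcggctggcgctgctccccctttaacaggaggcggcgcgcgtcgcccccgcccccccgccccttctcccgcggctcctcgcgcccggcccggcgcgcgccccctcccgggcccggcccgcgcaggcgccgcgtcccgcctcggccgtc
Islr2: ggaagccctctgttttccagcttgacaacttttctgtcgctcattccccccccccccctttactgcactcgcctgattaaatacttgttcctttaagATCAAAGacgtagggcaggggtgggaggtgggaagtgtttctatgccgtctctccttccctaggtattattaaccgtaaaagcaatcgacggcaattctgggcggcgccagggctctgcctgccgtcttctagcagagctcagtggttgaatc
The *Adgrb2* sequence was 81.6% G and C with 35 CpG dinucleotides and held no match. It lies inside the annotated span of the gene, which begins at chr4:129877901, so the bases before that position were not searched. The *Islr2* sequence was 52.4% G and C with 10 CpG dinucleotides, and held 1 match, ATCAAAG, which begins 153 bases before the start. The table lists 2 further starts of *Islr2*, not printed here, and the 250 bases before each of them (chr9:58109818-58110067 and chr9:58109628-58109877) held 0 matches. Over the members, 45 promoters of 33 genes were listed, of which 2 held a match (4.44%), those of *Adgrb3* and *Islr2*. Of all 32851 promoters listed, 2457 did (7.48%). A match is only a run of letters in this window, and binding was not measured.

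Across all 47 members the median difference was -0.037, with 30 members below 0 on average and 17 above. Of all genes 49.5% were below 0, against 63.8% of the members. The median over the members was -0.084, -0.011, -0.048 and -0.008 in pairs 1 to 4, so pair 1 was the lowest and pairs 2 and 4 were near 0. The median absolute difference was 0.073 over the members and 0.049 over all genes, while the median SD of the 4 pairs was 0.10 and 0.098. In 10 members all 4 pairs were lower, beside 10.2% of all genes, and in 4 members all 4 were higher, beside 10.4% of all genes. The 10 comprised the 4 called genes and *Adgrl2*, *Adgrb1*, *Cbln1*, *Lrrtm1*, *Clstn1* and *Clstn3*, and the 4 were *Nrxn3*, *Slitrk1*, *Slitrk2* and *Slitrk4*. At an unadjusted p under 0.05 there were 11 members, beside 12.4% of all genes. Of these, 7 were lower (5.98% of all genes) and 4 higher (6.45% of all genes).

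**Figure D2:**
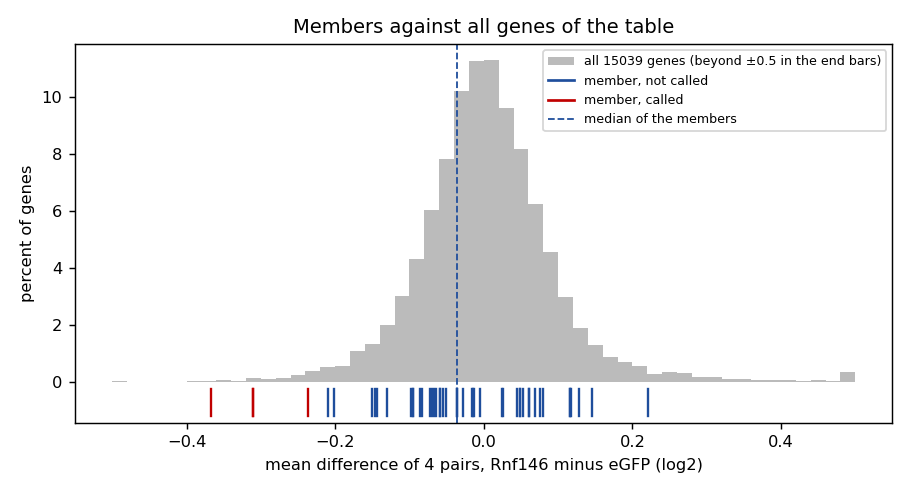
Histogram of the mean difference of 4 pairs, Rnf146 minus eGFP (x axis, log2), over all 15039 genes (y axis, percent of genes), with a tick below for each of the 47 members, the called ones in red. The called members lie between -0.37 and -0.24, and the dashed line marks the members' median of -0.037.

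The presynaptic receptors gave no call among 5 genes. *Nrxn3*, a neurexin, was at 12.85, 12.80, 12.85 and 12.87 in the eGFP libraries and at 12.95, 13.00, 12.95 and 12.93 in the Rnf146 libraries. All 4 pairs were higher, by 0.12 ± 0.06 (95% interval 0.01 to 0.22), but the adjusted p was 0.352 in limma. *Nrxn2*, the other neurexin on the list, had pair differences of -0.39, 0.03, -0.25 and 0.00, with a mean of -0.15 ± 0.20 (adjusted p = 0.448). Its groups overlapped, and pairs 1 and 3 carried the mean. The LAR-type receptor phosphatases, which bind SLITRK and IL1RAP-like proteins across the cleft, had means between -0.086 for *Ptprs* (adjusted p = 0.620, limma) and -0.005 for *Ptprd*. The sign of *Ptprd* was not fixed, since it was 0.0015 after quantile normalization and 0.0072 with array weights.

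Among the adhesion G protein-coupled receptors 3 of 6, *Adgrb2*, *Adgrb1* and *Adgrl2*, were lower in every pair. *Adgrb1*, which promotes spine formation and the engulfment of apoptotic cells, stood at 13.74, 13.64, 13.58 and 13.56 in the eGFP libraries and at 13.32, 13.42, 13.48 and 13.50 in the Rnf146 libraries. The gap was widest in pair 1 (-0.42) and narrowest in pair 4 (-0.06), with a mean of -0.20 ± 0.16 (adjusted p = 0.252, limma). *Adgrb3*, the receptor for C1q-like proteins, had pairs of both signs and a mean of 0.05 ± 0.14. Among the latrophilins, postsynaptic receptors for teneurins and FLRT proteins, *Adgrl2* was at 11.84, 11.87, 11.89 and 11.94 in the eGFP libraries and at 11.78, 11.75, 11.73 and 11.69 in the Rnf146 libraries. The groups did not overlap and the difference was -0.15 ± 0.08 (adjusted p = 0.266, limma). *Adgrl3* differed by 0.02 ± 0.12.

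The secreted organizers, counted with the pentraxin receptor, had the lowest median of any role on the list, -0.21 over 5 genes. Besides the pentraxins these were the cerebellins, C1q-related proteins that join neurexins to delta-type glutamate receptors. *Cbln2* was at 10.32, 10.35, 10.04 and 10.14 in the eGFP libraries and at 9.89, 9.87, 10.17 and 10.08 in the Rnf146 libraries. Its mean of -0.21 ± 0.30 (adjusted p = 0.436, limma) came from pairs 1 and 2, and pair 3 was higher. *Cbln1*, taken up after its values were seen, had the most even pairs of the list, from -0.08 to -0.11, with a mean of -0.10 ± 0.01. Its mean level of 8.95 was in the lowest of the 4 level bins (8.20 to 8.99). Because limma pools the spread with that of other genes its adjusted p was 0.410. *Cbln4* differed by 0.06 ± 0.12.

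Among the postsynaptic ligands none of 6 was called. *Nlgn1*, the neuroligin of excitatory synapses, differed by 0.06 ± 0.20 (95% interval -0.11 to 0.23) and *Nlgn3* by 0.05 ± 0.10 (95% interval -0.07 to 0.16). Both intervals include 0 and neither reaches the size of the *Nptxr* difference. The calsyntenins, cadherin-related ligands of neurexins, had all 3 means below 0, although *Clstn2* (-0.02 ± 0.06) turned to 0.0063 with the correction for GC content and length. *Clstn3* had pairs of -0.17, -0.13, -0.05 and -0.04 and a mean of -0.10 ± 0.06 (adjusted p = 0.437, limma).

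The leucine-rich repeat proteins, 21 genes in 6 families, were split, with 12 means below 0, 9 above and a median of -0.03. The highest difference of the whole list was that of *Slitrk4*, a postsynaptic partner of LAR-type phosphatases on the X chromosome (chrX:63308490-63321076, minus strand). It stood at 10.56, 10.47, 10.50 and 10.55 in the eGFP libraries and at 10.70, 10.79, 10.76 and 10.71 in the Rnf146 libraries. All 4 pairs were higher, by 0.22 ± 0.09, and its adjusted p of 0.121 was the lowest among the members that were not called. *Slitrk1* and *Slitrk2*, looked up because they were the other members higher in every pair besides *Nrxn3*, differed by 0.15 ± 0.09 (adjusted p = 0.284, limma) and 0.13 ± 0.08 (adjusted p = 0.346). *Slitrk3* was near 0 (-0.03 ± 0.08).

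In the LRRTM family, neurexin ligands of excitatory synapses, *Lrrtm1* was lower in all 4 pairs by -0.13 ± 0.07 (adjusted p = 0.311, limma), whereas *Lrrtm2* differed by -0.01 ± 0.07. *Lrrtm1* pairs were -0.11, -0.05, -0.20 and -0.17, so pairs 3 and 4 were the widest, unlike most members below 0. The FLRT proteins, ligands of latrophilins and UNC5 receptors, had means from -0.070 to 0.075, with *Flrt2* at 0.07 ± 0.08 and *Flrt3* at 0.08 ± 0.11. The netrin-G ligands lay between *Lrrc4* (-0.05 ± 0.08) and *Lrrc4c* (0.03 ± 0.07), and *Lrrc4b* (-0.04 ± 0.11) was at 0.0069 after the correction for GC content and length. The SALM proteins, several of which bind PSD-95 or LAR-type phosphatases, lay between *Lrfn1* (-0.07 ± 0.11) and 0.05, with *Lrfn4* at -0.04 ± 0.05 and at 0.018 after the correction for GC content and length. None of these 4 families had a called member.

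*Il1rapl1*, an X-linked receptor that binds the phosphatase PTPRD, had pairs of -0.07, 0.01, -0.12 and -0.39 and a mean of -0.14 ± 0.18 (adjusted p = 0.443, limma). Its mean rested mostly on pair 4. *Il1rap* differed by -0.01 ± 0.15. The contactin-associated proteins, which organize the axon around the node of Ranvier, both had means above 0 with groups that overlapped. *Cntnap1*, at the paranodal junction with myelin, had pairs of -0.18, 0.17, 0.17 and 0.30 (0.12 ± 0.21, adjusted p = 0.572), and *Cntnap2* had pairs of 0.34, 0.27, -0.18 and 0.04 (0.12 ± 0.24, adjusted p = 0.613).

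**Figure D3:**
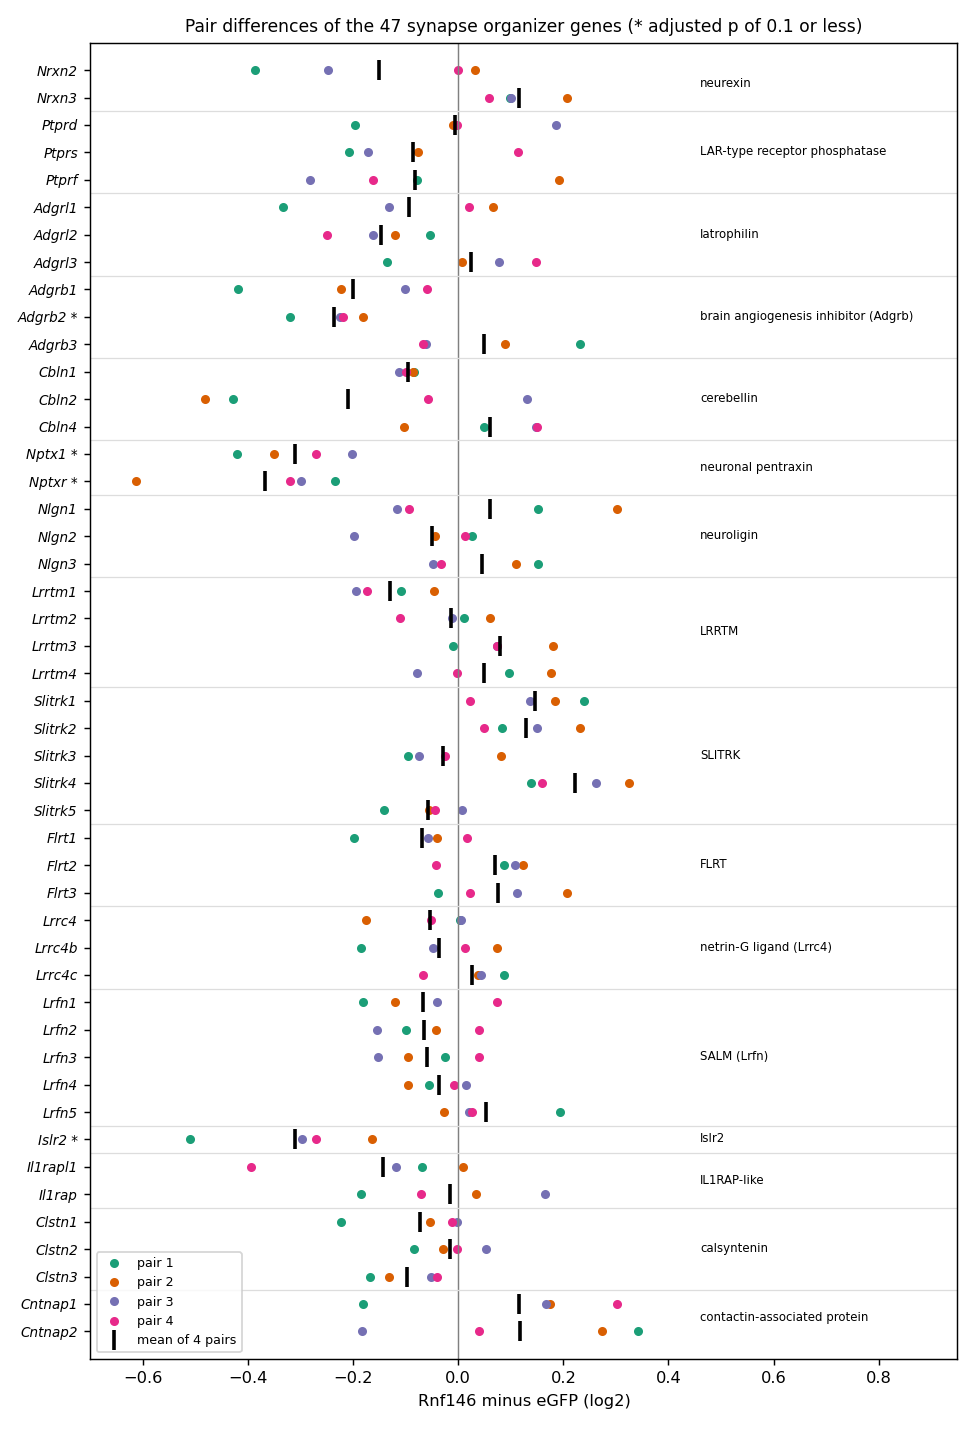
Pair differences, Rnf146 minus eGFP (x axis, log2), of each of the 47 members (y axis, grouped by family), with a point for each pair and a bar for the mean of 4 pairs; an asterisk marks the 4 called genes. Both pentraxins and *Islr2* lie wholly to the left, *Slitrk4* wholly to the right, and most other members have points on both sides of 0.

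Base composition moved with the members' differences. Members with a transcript GC content of at least 50%, a limit set after the values were seen, had a mean below 0 in 22 of 23 cases, against 61.8% of all such genes. Below that limit 16 of 24 members had a mean above 0, against 60.2% of all such genes. All 4 called members were in the GC-rich part, as were 56 of the genes called lower over the whole table, with 8 below the limit. Across the 47 members Pearson's r of the difference with GC content was -0.52, -0.48, -0.52 and 0.00 in pairs 1 to 4, and over 14590 genes it was -0.30, -0.06, -0.18 and -0.01. These correlations are across genes of the same 8 libraries, which are not independent replicates. In pair 4, where r was 0.00 over the members, *Nptx1*, *Nptxr*, *Islr2* and *Adgrb2* differed by -0.27, -0.32, -0.27 and -0.22. They were called by a fit that includes pair 4, so low values in that pair were part of their selection. For the mean of 4 pairs, r over the members was -0.53, and -0.32 after the correction for GC content and length. Over all 14590 genes it was -0.21, and 0.00 after the correction. A relation with GC content thus remained among the members after the correction. How far composition enters the members' differences was not tested further.

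**Figure D4:**
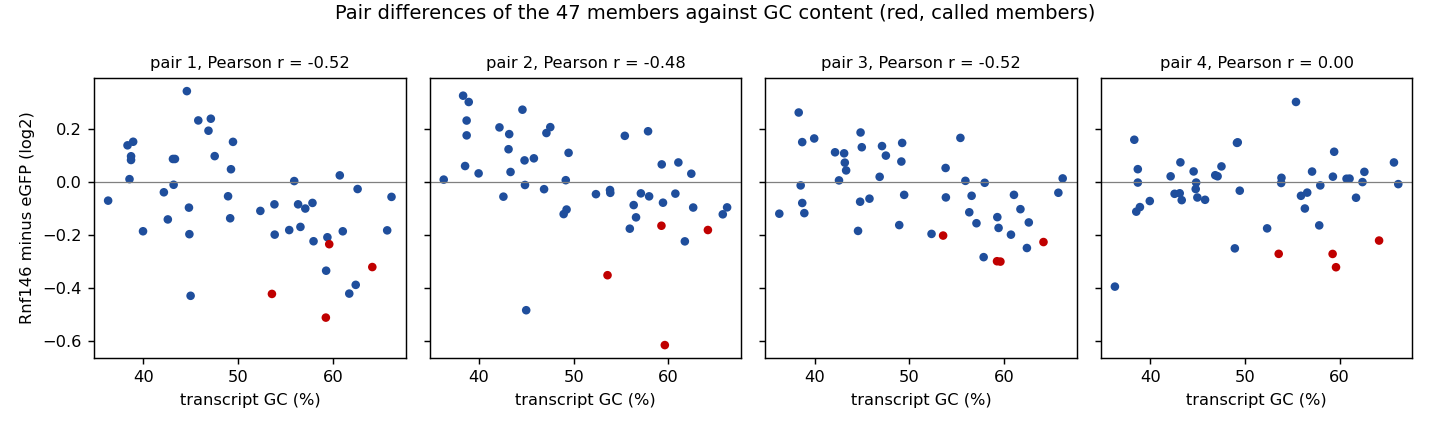
Pair difference, Rnf146 minus eGFP (y axis, log2), of the 47 members against transcript GC content (x axis, percent), 1 panel for each pair, with called members in red. Points slope down in pairs 1 to 3 (r = -0.52, -0.48 and -0.52) and not in pair 4 (r = 0.00). The red points lie below -0.2 in pair 4, a pair that also entered their calls.

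Markers of cell types and neighbouring regions were compared between the groups as well, and their differences varied by list. The 10 cortical excitatory neuron markers were all in the table, and their mean difference was -0.21, -0.34, -0.05 and -0.18 in pairs 1 to 4, with *Slc17a7* and *Neurod2* called lower. Their mean level was between 11.73 and 11.88 in the eGFP libraries and between 11.53 and 11.68 in the Rnf146 libraries. Of 8 septal neuron markers 5 were in the table, and all 5 were called higher, by 0.56 ± 0.17 on average (9.44 to 9.63 in eGFP, 9.96 to 10.15 in Rnf146). The 10 striatal neuron markers differed by -0.10, 1.32, 0.72 and 0.27 (9.91 to 10.62 in eGFP, 10.52 to 11.23 in Rnf146). Their mean was 0.55 ± 0.61 and 0 were called. The 10 oligodendrocyte markers differed by -0.14, 0.46, 0.93 and 0.54 (11.73 to 12.27 in eGFP, 12.13 to 12.66 in Rnf146). Their mean was 0.45 ± 0.44 and 0 were called. The 8 interneuron markers differed by 0.14 ± 0.04 on average with a median of -0.04. *Gad1*, *Gad2* and *Slc32a1* were called higher, while the other 5, *Pvalb*, *Sst*, *Vip*, *Lhx6* and *Adarb2*, had means from -0.23 to -0.03, of which 3 were below 0 in all 4 pairs. The 8 microglia markers differed by -0.17 ± 0.08, with only *C1qb* called, lower. Astrocyte (-0.02 ± 0.06) and endothelial markers (0.02 ± 0.06) were near 0. The lowest value of the table was 7.86, so no marker was listed at 0.

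Among the called members, pair 2 gave the widest gap for *Nptxr* and also the lowest cortical excitatory and highest striatal value. *Islr2* and *Adgrb2* were narrowest in that pair. In pair 1, where the striatal and oligodendrocyte lists were slightly below 0, *Nptx1*, *Islr2* and *Adgrb2* showed their widest gaps (-0.42, -0.51 and -0.32). The cortical excitatory list was below 0 in that pair too (-0.21). *Nptx1* was narrowest in pair 3 (-0.20), where the cortical excitatory list was nearest to 0 (-0.05). *Cntnap1* was negative in pair 1 and positive in the other pairs, the signs of the oligodendrocyte list and also of the striatal list. The part of tissue composition in the members' differences was not tested.

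**Figure D5:**
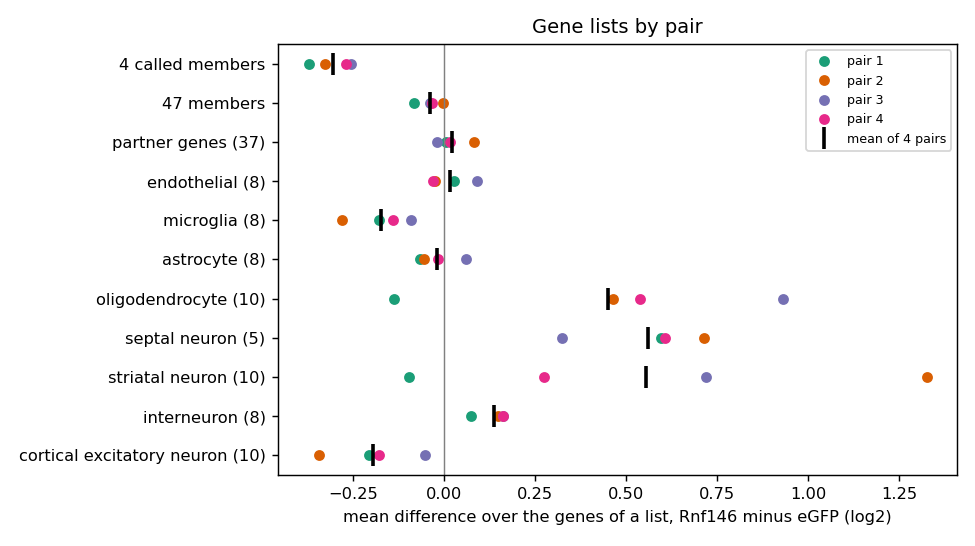
Mean difference over the genes of a list, Rnf146 minus eGFP (x axis, log2), for the 4 called members, the 47 members, 37 partner genes and 8 lists of cell type markers (y axis), with a point for each pair and a bar for the mean of 4. The called members lie between -0.37 and -0.26, cortical excitatory neuron and microglia markers are below 0 and septal neuron markers above 0 in all 4 pairs, and striatal and oligodendrocyte markers change sign in pair 1.

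Of 40 extracellular partners and further family members of these genes, 37 were in the table and 1 was called, *Unc5a*, a netrin receptor of a family that also binds FLRT proteins. Its pair differences were -0.27, -0.19, -0.37 and -0.20, with a mean of -0.25 ± 0.08 (adjusted p = 0.073, limma). It lost its call when pair 2, 3 or 4 was left out and with the correction for GC content and length (adjusted p = 0.131), with differences that stayed between -0.28 and -0.20. The median over the 37 was 0.03, with 14 means below 0 and 23 above, so they did not lean to lower values as the 47 did, a contrast that was not tested. *Nptx2*, the activity-regulated pentraxin and partner of *Nptx1* and *Nptxr*, had pairs of -0.68, -0.44, 0.00 and -0.21 (-0.33 ± 0.30, adjusted p = 0.221, limma). *C1ql3*, a secreted ligand of the receptor ADGRB3, had -0.14, -0.54, -0.22 and -0.36 (-0.31 ± 0.18, adjusted p = 0.105), lower in all 4 pairs and past the threshold only in some alternatives, among them the correction for GC content and length (adjusted p = 0.089). The highest were the netrin receptors *Unc5b* (0.35 ± 0.28, adjusted p = 0.184) and *Unc5d* (0.28 ± 0.19, adjusted p = 0.153).

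For 7 members the annotation places the whole gene inside the span of a protein-coding gene on the opposite strand. Reads could be shared with the host where transcripts of both overlap and strand was not used in the quantification. Only gene spans were compared, so overlap of transcripts was not examined, and the sources used here do not state the use of strand. The hosts of *Lrrtm1*, *Lrrtm2*, *Lrrtm3*, *Flrt1*, *Flrt3*, *Lrrc4* and *Lrfn4*, namely *Ctnna2*, *Ctnna1*, *Ctnna3*, *Macrod1*, *Macrod2*, *Snd1* and *Pcx*, differed by 0.05, 0.09, 0.09, 0.03, 0.02, 0.01 and 0.13. *Lrrtm3* (0.08 ± 0.08) and *Flrt3* had means above 0 like their hosts, and the other 5 had means below 0. *Lrrtm1* was thus lower in all 4 pairs in a host whose mean was above 0. None of the 4 called members lies inside a host on the opposite strand, but *Islr2* and *Nptxr* overlap genes on their own strand for most of their span.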

How the data were processed

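Prefrontal cortex RNA was sequenced as 8 libraries, 4 per group, after TruSeq stranded mRNA library preparation. The labels number 4 replicates per group without saying whether each is 1 mouse, so p-values measure the spread between these libraries. The submitters' processing notes name Cutadapt, Salmon 1.9.0, DESeq2 and GRCm39, and the study's methods give GENCODE vM30 as the reference. The deposited values were normalized by the authors and lie on a log2 scale, read as such from their range. Their transformation and centring are not given in the sources used here. Counts and depths were not analysed here, so no count test or counting interval was made.

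The pairing comes from replicate numbers in the labels and from the table itself, in which the sums of the values of a pair were equal to within 1.4e-13 for all genes. This centring sets the correlation of same-numbered libraries, which therefore says nothing about shared cages, days or batches. Differences were fitted for all 15039 genes with limma 3.58.1 (R 4.3.3; lmFit, eBayes with trend, two-sided), with the replicate number as a block. P-values were adjusted by the Benjamini-Hochberg method over all genes, and called at 0.1. Errors are the SD of 4 pair differences, and intervals are 95% intervals of limma. The fit was tested on simulated data in which genes varied independently and 200 genes were shifted by 0.5. Of the unshifted genes, 5.43% had an unadjusted limma p under 0.05 with the block and 18.4% without it. Differences of the called members were smaller than 0.5, so this does not check their calls.

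Members and lists were chosen with earlier results of these data known. Named were all called members, the members with the largest and the smallest absolute difference of each family, those over 0.2, *Rnf146*, and among partner genes those called, to which the highest and lowest 2 were added. Other members are given by counts unless stated. Coordinates, GC content and length are from GENCODE vM39 (GRCm39), which matched 14590 genes (97.0%). Alternatives covered the block, each pair, scaling, low values, GC content and length, the variance model, weights and the threshold.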

Additional observations from a re-analysis of the deposited data

How the results depend on the processing

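Both libraries of a number were left out together, which leaves 3 pairs. Leaving out 1 pair at a time gave 0 to 5 members called, 0 to 4 of them lower and 0 to 1 higher, and 0 to 5 partner genes called; over all genes 421, 42, 169 and 14 were called without pairs 1, 2, 3 and 4. No replicate block gave 13 members called (9 lower, 4 higher), 9 partner genes and 3226 of all genes. The correction for GC content and length, with the replicate block, left 2 members called, both lower, and 170 of 14590 genes. A threshold of 0.05 left 1 member, also lower, and 0 partner genes. Array weights added 1 member called higher and brought the partner genes to 3, while calls over all genes rose from 188 to 355. No variance trend, robust eBayes, median centring, quantile normalization and leaving out the genes of lowest level each called the same 4 members. The members' median ranged from -0.053 to -0.021 over all alternatives. Of the values of 38 named genes (32 members, *Rnf146* and 5 partner genes), 443 kept direction and side of the threshold, 17 passed it only in the alternative, 21 only in the main analysis, and 12 in 8 genes changed sign. These were *Lrfn4* (0.018) and *Clstn2* (0.0063) with the GC correction, *Ptprd* with array weights (0.0072) and quantile normalization (0.0015), and 7 genes when 1 pair was left out. Their ranges over the pairs left out were -0.070 to 0.058 for *Ptprd*, -0.017 to 0.077 for *Adgrl3*, -0.013 to 0.086 for *Adgrb3*, -0.020 to 0.12 for *Nlgn1*, -0.038 to 0.020 for *Lrrtm2*, -0.075 to 0.042 for *Il1rap* and -0.039 to 0.0067 for *Clstn2*. Among the members outside that rule only *Lrrc4b* changed sign, at 0.0069 with the GC correction and 0.013 without pair 1. The cause of these changes was not tested. Depth limits are unknown without counts.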

Other observations

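Close relatives within a family differed from each other in several cases, which were picked after their values were seen and are given without a test. *Nrxn3* exceeded *Nrxn2* in its difference by 0.48, 0.18, 0.35 and 0.06 in pairs 1 to 4, a mean of 0.27 ± 0.19 (SD, n = 4 pairs). *Adgrb2* lay below *Adgrb3* by 0.28 ± 0.19, in all 4 pairs. *Slitrk4* lay above *Slitrk5* by 0.28 ± 0.07, with pairs from 0.20 to 0.38. All 3 gaps were narrowest in pair 4.

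Genes of this list are spread over 19 chromosomes, with 4 on the X chromosome, and their genomic span runs from 4.14 kb to 2271 kb. Of the 10 members longer than 500 kb, which include *Nrxn3*, *Ptprd*, *Il1rapl1* and *Cntnap2*, 7 had a mean above 0, beside 61.8% of all genes of that span. Of the 37 shorter members, 27 had a mean below 0, beside 49.7% of all genes of that span.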
